A study of Mus musculus with 6 samples.

Results

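The transcription factor genes Neurod2, Neurod6, Bhlhe22, Nfia, Nfib, Nfix, Sox4 and Sox11 were followed in the embryonic mouse neocortex. They were taken by name as factors of young projection neurons, with earlier results of these data known. All 8 were found among the 48709 mouse genes counted. RNA was sequenced from the dissected neocortex of 3 mice heterozygous for a Rest allele lacking exon 4, Rest(+/deltaExon4), called Rest_het, and from 3 wild-type (WT) mice. All were C57BL/6 at embryonic stage E15.5, and the labels name no further allele or treatment. The comparison asked how loss of exon 4 from 1 copy of Rest, which encodes a repressor of neuronal genes, goes with cortical gene expression.

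Projection neurons of the cortex are born from radial glia and intermediate progenitors and switch on these factors as they leave the cell cycle or soon after. NeuroD proteins and Bhlhe22 are basic helix-loop-helix (bHLH) proteins. NeuroD proteins pair with E proteins and bind E-box DNA to activate neuronal genes, while Bhlhe22 acts mainly as a repressor. The nuclear factor I (NFI) proteins Nfia, Nfib and Nfix bind DNA as dimers and serve both the maturation of radial glia and that of neurons. Sox4 and Sox11 are SoxC proteins, which bind DNA through an HMG box and activate genes of the neuronal cytoskeleton. NFI and SoxC genes are also active in progenitors and in interneurons, so their RNA need not come from projection neurons alone.

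Gene reads per library ranged from 17835117 to 18426652 in Rest_het and from 19996943 to 20753653 in WT. Rest itself measured 16.7, 18.98 and 18.6 CPM (reads of the gene over all gene reads, scaled by TMM and set to a common total) in Rest_het and 21.0, 19.7 and 21.1 CPM in WT, a count over all exons that does not check the deletion. Reads on the CRE-ERT2 sequence were present in Rest_het and absent in WT, while reads on LacZ were absent in Rest_het and present in WT. The labels name neither sequence. Both follow the genotype in all libraries, so a difference that goes with them cannot be told apart from one that goes with Rest. Markers of projection neurons were present in all libraries, with 8 of 8 tested and a summed level of 1128 to 1231 CPM in Rest_het and 1163 to 1471 CPM in WT. Summed markers of interneurons and the ventral telencephalon, 11 of 12 tested and none at 0 throughout, measured 278 to 572 CPM in Rest_het, highest in replicate 2, and 228 to 376 CPM in WT. Those of the endothelium and its mural cells, 7 of 7 tested, measured 1526, 1229 and 301 CPM in Rest_het and 206 to 317 CPM in WT. In bulk tissue, fewer cells of a type and less RNA per cell cannot be told apart.

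None of the 8 factors passed the test between genotypes, but 2 of them did not behave like the rest. Sox11 differed by more than 10-fold between libraries of the same genotype, and over 92% of the read pairs on Sox4 were missing from the count column on which its level rests. The steadiest was Neurod2, whose level was nearly equal in all 6 libraries. At an edgeR adjusted p under 0.05, 0 of the 8 members were called, against 0.123% of all 15385 genes tested, 0.065% higher and 0.0585% lower. DESeq2 and limma-voom also called 0 of them. At an unadjusted p under 0.05 there was 1 member, Nfix, which was lower, against 11.7% of all tested genes in either direction and 4.72% lower. The p-values measure the spread between these mice, whose litters the labels do not name. The log2 fold change lay below 0 for 7 of the 8, against 49.1% of all tested genes, with a median of -0.21 against 0.0054. The 7 include Neurod2, at -0.0006, and Sox11, at -0.99 with SE 1.16. The number below 0 was 6 with limma-voom and with a filter of 1 CPM in 3 libraries, and 8 in the strand columns.

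Per kb of exon, Sox11 was the most abundant of the 8 on average and Bhlhe22 the least. Sox11 measured 2819 ± 3772 CPM per kb in Rest_het and 5581 ± 4474 CPM per kb in WT (SD, n = 3 each). Nfia followed with 457 ± 59.2 CPM per kb in Rest_het and 522 ± 44.8 CPM per kb in WT, and Nfib with 431 ± 46.4 CPM per kb in Rest_het and 501 ± 26.7 CPM per kb in WT. The values of Nfia and Nfib overlapped in each genotype, so their order is not set. Sox11 stood above both in 5 libraries, but in WT replicate 1 it measured 428 CPM per kb and lay below Nfia at 569.98 and Nfib at 492 CPM per kb. Neurod6 had 200.3 ± 21.9 CPM per kb in Rest_het and 241 ± 30.6 CPM per kb in WT, and Neurod2 67.1 ± 1.48 in Rest_het and 67.1 ± 2.61 in WT. Below them came Nfix, with 35.6 ± 4.20 CPM per kb in Rest_het and 49.96 ± 12.5 in WT, and Bhlhe22, with 2.88 ± 0.459 in Rest_het and 3.29 ± 0.468 in WT. Sox4 measured 26.4 ± 3.08 CPM per kb in Rest_het and 24.4 ± 2.12 in WT by the unstranded count, next to last. Counting the pairs of both strand columns put it at 365 ± 10.8 CPM per kb in Rest_het and 386 ± 15.6 in WT, between Nfib and Neurod6.

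**Figure D1:**
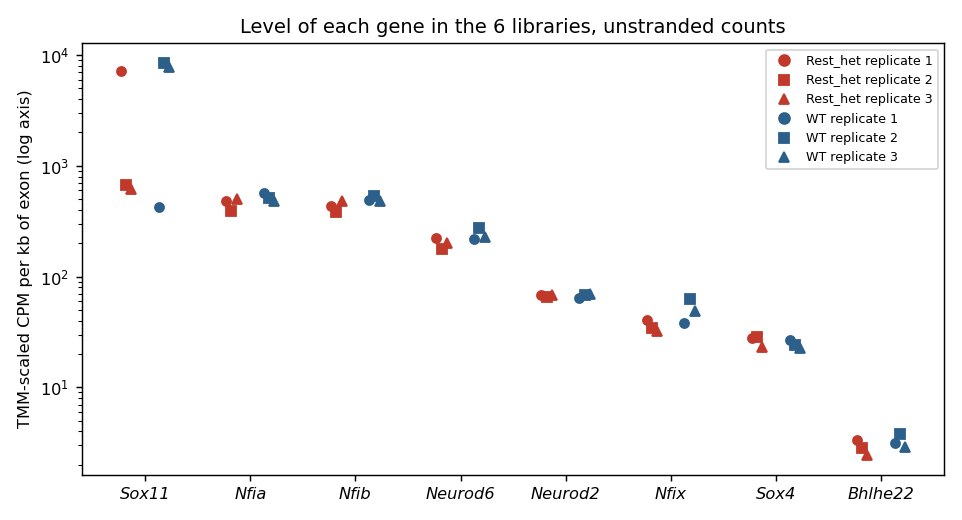
TMM-scaled CPM per kb of merged exon (log axis) of each gene, with Rest_het libraries on the left of each pair and WT libraries on the right. Sox11 splits into values near 7175 to 8473 and near 428 to 668 within both genotypes, while the other genes keep together.

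Neurod2 encodes a bHLH activator that is kept on in maturing cortical excitatory neurons. The gene lies on chromosome 11 from 98325415 to 98329648 in GRCm38, in 2 exons. It measured 214, 206 and 212 CPM in Rest_het and 202, 213 and 218 CPM in WT. The highest library held 1.08 times the lowest, and the groups overlapped fully. Its log2 fold change was -0.0006 with SE 0.072 (edgeR adjusted p = 0.999), and about 2 SE on each side allow a fold between 0.906 and 1.10. A share of 3.02% of the 8271 genes with a mean of at least 10 CPM had a smaller spread within genotypes.

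Neurod6, also known as Nex, marks postmitotic excitatory neurons of the cortex and is used to drive Cre in them. It lies on chromosome 6 from 55677822 to 55681263. It measured 476, 382 and 434 CPM in Rest_het and 470.04, 593 and 491 CPM in WT. WT replicate 2 was the highest and Rest_het replicate 2 the lowest, and the groups overlapped through Rest_het replicate 1 and WT replicate 1. The log2 fold change was -0.27 with SE 0.12 (edgeR unadjusted p = 0.054, adjusted p = 0.43). About 2 SE on each side of the fold of 0.831 run from 0.708 to 0.976. This margin leaves out 1 although the unadjusted p was above 0.05, so it is narrower than the test implies. It also takes no account of the number of genes tested. Without WT replicate 2 the log2 fold change was -0.16.

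Bhlhe22, also known as Bhlhb5, is a repressor that works with Prdm8 and shapes cortical area and corticospinal projection. It lies on chromosome 3 from 18054174 to 18057517 in 1 exon. It held 208, 171 and 154 reads in Rest_het and 221, 242 and 189 reads in WT, or 11.2, 9.46 and 8.17 CPM in Rest_het and 10.5, 12.7 and 9.72 CPM in WT. Rest_het replicate 1 lay among the WT values. The log2 fold change was -0.19 with SE 0.17 (edgeR adjusted p = 0.66), so a fold between 0.695 and 1.0995 is allowed by the same margin. It was -0.32 without Rest_het replicate 1 and -0.076 without WT replicate 2. It was the member with the fewest reads.

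Neurod6 and Bhlhe22 thus lay slightly below WT on average, by less than the test could separate, while Neurod2 did not move with them. Among bHLH relatives, a list of 10 genes of the same family, 7 had enough reads to be tested. This list and the later ones were chosen with earlier results of these data known. Of the 7, 0 rose and 0 fell, against 0.123% of all tested genes called. Above 0 lay 5 of the 7, with a median of 0.068 in log2 fold change, while 49.1% of all tested genes lay below 0. The paralog Neurod1, active mainly in intermediate progenitors and newborn neurons, measured 32.9 ± 3.70 CPM in Rest_het and 31.4 ± 3.41 CPM in WT (SD, n = 3 each), with an edgeR adjusted p of 0.85. Neurod4 measured 3.01 ± 0.250 CPM in Rest_het and 3.42 ± 1.09 CPM in WT (edgeR adjusted p = 0.82). The proneural gene Neurog2 differed by 0.093 in log2 units (edgeR adjusted p = 0.74), and Neurog1 and the oligodendrocyte-lineage gene Olig1, both near 1 to 2 CPM, had 0.40 and 0.32 (edgeR adjusted p = 0.74 and 0.81). Leaving out single libraries moved Neurog1 between 0.11 and 0.94 and Olig1 between 0.076 and 0.85.

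The E proteins that pair with NeuroD, and Id, Hes and Hey proteins, formed a list of 11 genes, all tested. Other than Hes6, the Id, Hes and Hey proteins oppose proneural factors. Of the 11 genes, 0 rose and 0 fell, against 0.123% of all tested genes called. The log2 fold change lay above 0 for 8 of the 11, while 49.1% of all tested genes lay below 0. The median of 0.36, the highest of the 6 lists, is the value of Id1, which measured only 1.21 to 2.86 CPM. The list genes highest in CPM, Tcf4, Id2 and Tcf12, lay below 0, at -0.16, -0.25 and -0.12. An unadjusted p under 0.05 was reached by 4 of the 11, against 11.7% of all tested genes. Tcf4, the most abundant E protein gene, measured 882 ± 30.4 CPM in Rest_het and 989 ± 118 CPM in WT, and Tcf12 50.9 ± 6.86 CPM in Rest_het and 55.3 ± 5.20 CPM in WT (SD, n = 3 each). Tcf3 measured 25.2, 24.7 and 19.5 CPM in Rest_het and 10.6, 17.9 and 19.2 CPM in WT, without overlap, and its log2 fold change was 0.54 (edgeR adjusted p = 0.41). The Notch target Hes5 had a log2 difference of 0.66 and Hes6, a promoter of neuronal differentiation, one of 0.43 (edgeR adjusted p = 0.36 each). The genotypes did not overlap for 4 of the 11, against 19.3% of all tested genes.

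**Figure D2:**
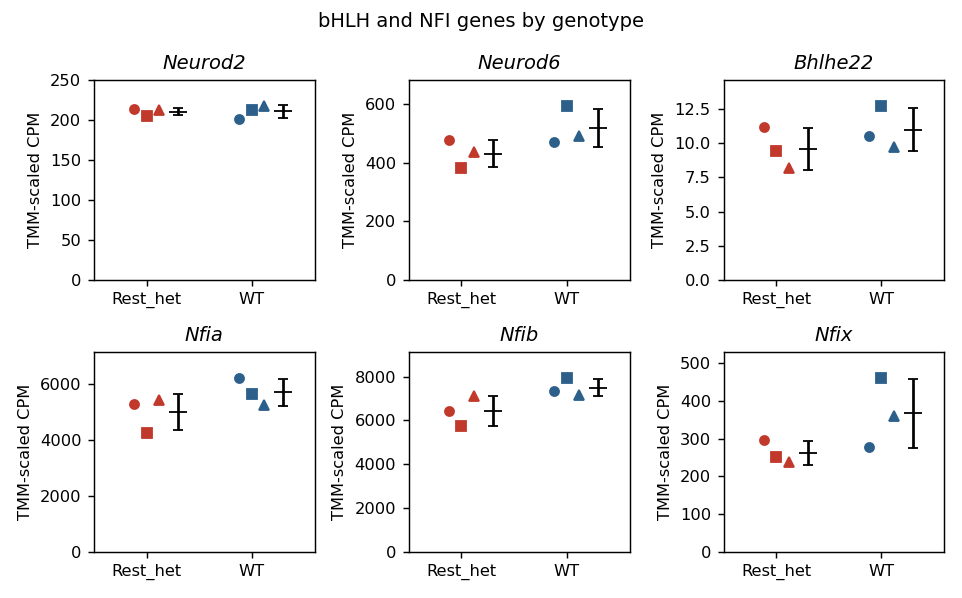
TMM-scaled CPM of 3 bHLH and 3 NFI genes in Rest_het (left) and WT (right), with circles, squares and triangles for replicates 1, 2 and 3 and bars for mean ± SD (n = 3 each). Nfib is the 1 gene of these whose groups do not overlap, and Neurod2 is level across all libraries.

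Nfia, Nfib and Nfix were lower on average in Rest_het, the fourth NFI gene, Nfic, was higher, and none passed the test. Nfib, which drives differentiation of radial glia and the growth of deep-layer axons, lies on chromosome 4 from 82290173 to 82705750. It measured 6439, 5745 and 7133 CPM in Rest_het and 7362, 7943 and 7178 CPM in WT. All Rest_het libraries lay below all WT libraries, though replicate 3 of Rest_het came within 1% of WT replicate 3. On the log2 scale the fold change was -0.22 with SE 0.10 (edgeR adjusted p = 0.45). An exact two-sided permutation test gave p = 0.1, the smallest that 3 against 3 allows. Groups without overlap always give this value, so it adds nothing to the separation itself. Nfib was the 1 member of 8 whose groups did not overlap, against 19.3% of all tested genes in either direction and 8.94% with Rest_het below WT.

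Nfia, a driver of gliogenesis that is also strongly expressed in cortical neurons, lies on the same chromosome from 97772734 to 98118874. It measured 5260, 4240.0 and 5432 CPM in Rest_het and 6208, 5618 and 5239 CPM in WT. Rest_het replicate 2 was the lowest library, and the other Rest_het libraries lay among the WT values. Its log2 fold change was -0.19 with SE 0.12 (edgeR adjusted p = 0.54), and -0.086 without Rest_het replicate 2. Nfia and Nfib were the nearest members to each other in pattern: their centred log2 CPM differed by a root mean square of 0.0902 over the 6 libraries. Each took 0.428 to 0.754% of the gene reads of a library, which placed them between the 9th and the 15th most counted gene.

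Nfix, which moderates progenitor number in the cortex and hippocampus, lies on chromosome 8 from 84699876 to 84800344. It measured 297, 251 and 238 CPM in Rest_het and 278, 462 and 362 CPM in WT. WT replicate 2 stood highest, and WT replicate 1 fell among the Rest_het values. The log2 fold change was -0.49 with SE 0.18, a fold of 0.713 with an interval from 0.562 to 0.906 (edgeR unadjusted p = 0.024, adjusted p = 0.38). Without WT replicate 2 it was -0.29. Nfix alone of the members had a gene called between the genotypes on its chromosome. That gene, Farsa, encodes a subunit of phenylalanine tRNA synthetase, lies 56.6 kb away and measured 40.2, 40.7 and 36.2 CPM in Rest_het and 63.5, 66.8 and 64.8 CPM in WT. Trmt1, 0.068 kb from Nfix on its other side, differed by 0.066 in log2 units (edgeR adjusted p = 0.84). Dand5, between Nfix and Farsa, measured 4.80, 3.76 and 4.93 CPM in Rest_het and 2.34, 2.79 and 3.14 CPM in WT, and Nacc1, 12.0 kb away, 15.8, 15.7 and 14.8 CPM in Rest_het and 9.93, 10.01 and 13.0 CPM in WT. Both were higher in all Rest_het libraries, opposite to Nfix and Farsa, and did not pass (edgeR adjusted p = 0.35 each). Between 6.52 and 9.93% of the pairs on Nfix were absent from the unstranded column, since 137 exon bases are shared with G430095P16Rik on the opposite strand.

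The fourth NFI gene, Nfic, is a minor member in the cortex. It measured 28.4, 26.6 and 26.4 CPM in Rest_het and 16.5, 17.5 and 21.9 CPM in WT. Its log2 fold change of 0.54 with SE 0.12 ran opposite to the other NFI genes and did not pass (edgeR adjusted p = 0.32). Among NFI transcripts per kb, Nfia made up 47.97 to 50.4% in Rest_het and 46.4 to 51.7% in WT, Nfib 44.9 to 47.3% in Rest_het and 44.6 to 47.7% in WT, and Nfic 0.393 to 0.495% in Rest_het and 0.225 to 0.326% in WT. The share of Nfix was 3.20 to 4.21% in Rest_het and 3.44 to 5.65% in WT. Nfia and Nfib thus took close to equal parts when merged exon lengths were used. With the longest transcripts Nfib averaged 764 CPM per kb over the 6 libraries and Nfia 559.8, so their parts depend on the length chosen.

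**Figure D3:**
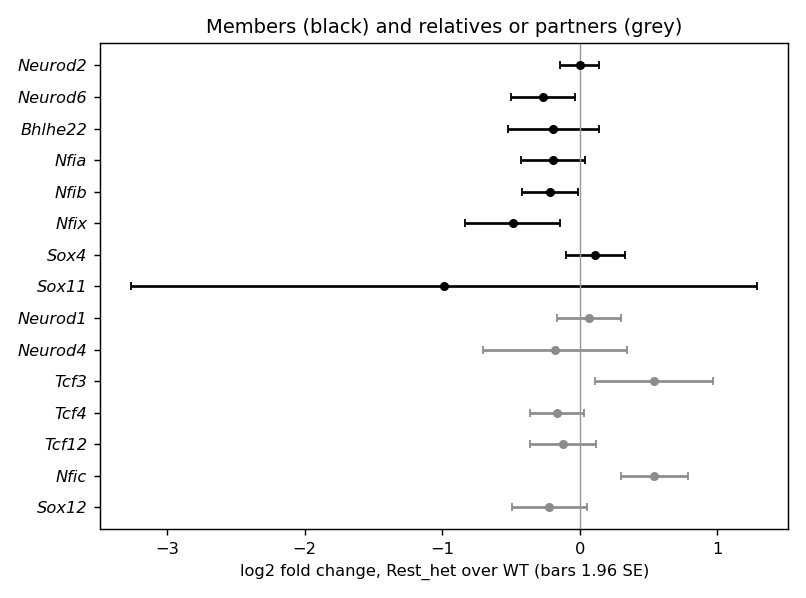
Log2 fold change of Rest_het over WT from edgeR, with bars of about 2 SE, for the 8 members (black) and 7 relatives and partners (grey). The bars are narrower than the test implies. Those of Neurod6 and Nfib leave out 0, though their edgeR unadjusted p was 0.054 and 0.068. The bar of Sox11 spans a fold from 0.104 to 2.44, and that of Neurod2 from 0.906 to 1.10.

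Sox11 and Sox4 are close relatives without introns, expressed together in newborn neurons, and their counts had different limits. The 250 bases before their RefSeq starts (GRCm38.p6, minus strand, 5′ to 3′) are shown because these are the start regions of the member with the widest spread and of its paralog. Capitals mark E-boxes, CANNTG, the kind of element that bHLH factors bind.
Sox11, chr12:27342719-27342968: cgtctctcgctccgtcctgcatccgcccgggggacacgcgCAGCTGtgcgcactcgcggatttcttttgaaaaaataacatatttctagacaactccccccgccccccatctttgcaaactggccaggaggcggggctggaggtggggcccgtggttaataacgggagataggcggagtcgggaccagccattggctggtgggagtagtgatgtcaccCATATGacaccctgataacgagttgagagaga
Sox4, chr13:28953700-28953949: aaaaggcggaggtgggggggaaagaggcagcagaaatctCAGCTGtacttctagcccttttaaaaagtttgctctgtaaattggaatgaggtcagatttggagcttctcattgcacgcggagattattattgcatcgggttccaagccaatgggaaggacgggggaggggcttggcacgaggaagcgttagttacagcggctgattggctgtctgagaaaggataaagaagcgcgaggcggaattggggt
The window of Sox11 held 2 E-boxes and that of Sox4 held 1, while 66.2% of 32851 RefSeq promoter windows of this length held at least 1. The NFI half-site TTGGC, searched on both strands, occurred 1 time before Sox11 and 3 times before Sox4, and in 41.5% of all windows. The Sox core ACAAT, on both strands, was in neither and in 27.7% of all windows. Entries were present for 6 of the 8 members. E-boxes numbered 3 before Neurod2 and 2 before Neurod6. The window of Nfia, chr4:97581693-97581942, lies far upstream of the gene start given above, 97772734, and held 4. The 4 windows of Nfix lie inside the gene span given above and held 0 to 2. RefSeq starts can thus differ from the gene positions printed here.

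Sox11 lies on chromosome 12 from 27334264 to 27342574. It held 1104798, 100325 and 96355 reads in Rest_het and 74489, 1336978 and 1267415 reads in WT. Rest_het replicate 1 and WT replicates 2 and 3 were high, and Rest_het replicates 2 and 3 and WT replicate 1 were low, so the split ran across genotypes. In CPM this was 59631, 5552 and 5111 in Rest_het and 3555, 70416 and 65180 in WT. The highest library exceeded the lowest 11.7-fold among Rest_het, 19.8-fold among WT and at most 1.66-fold within a genotype for any other member. Sox11 was the single most counted gene in the 3 high libraries, with 5.996% of gene reads in Rest_het replicate 1 and 6.68 and 6.34% in WT replicates 2 and 3, and ranked 11th to 24th in the others with 0.359 to 0.561%.

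Its log2 fold change was -0.99 with SE 1.16 (edgeR adjusted p = 0.76), so a fold from 0.104 to 2.44 is allowed and no difference between genotypes could be read at this spread. Leaving out Rest_het replicate 1 moved it to -3.12, with an edgeR adjusted p of 0.67. Of the 8271 genes with a mean of at least 10 CPM, 10 had a wider spread within genotypes. The authors' deposited normalized values hold the same split, since they equal the counts divided by 1 factor per library. The strand columns hold it as well, and no annotated gene overlaps Sox11.

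The genes nearest to Sox11 in pattern, by root mean square difference of centred log2 CPM over 6 libraries among 8270 genes, were Mfap1b at 0.982 and Ubr1 at 1.33. Mfap1b, a splicing factor gene on chromosome 2 at 121460235 to 121474067, measured 93.2, 24.3 and 25.7 CPM in Rest_het and 31.6, 112 and 108 CPM in WT. Ubr1, a ubiquitin ligase of the N-degron pathway on chromosome 2 at 120860269 to 120970715, measured 49.5, 20.2 and 22.9 CPM in Rest_het and 24.96, 52.2 and 55.6 CPM in WT. The same 3 libraries were high for both genes, over a narrower range than for Sox11. Of the 10 nearest genes, 6 lie on chromosome 2, which holds 8.49% of the genes compared, and this count was made after their positions were seen. Mfap1b has a near-identical copy, Mfap1a, with 30.7, 19.9 and 24.7 CPM in Rest_het and 25.4, 36.1 and 37.1 CPM in WT. Pairs that map equally to both are multimapping and lie outside both counts. Of the 4 tested genes nearest to Sox11 on chromosome 12, Rnf144a, 0.919 Mb away, measured 18.7, 15.8 and 15.54 CPM in Rest_het and 12.3, 17.7 and 17.0 CPM in WT, and Rps7, 1.29 Mb away, 146, 134 and 134 CPM in Rest_het and 142, 161 and 147 CPM in WT. Both were higher in the same 3 libraries, by far less than Sox11, while Cmpk2 and Rsad2, 0.854 and 0.878 Mb away, were not.

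**Figure D4:**
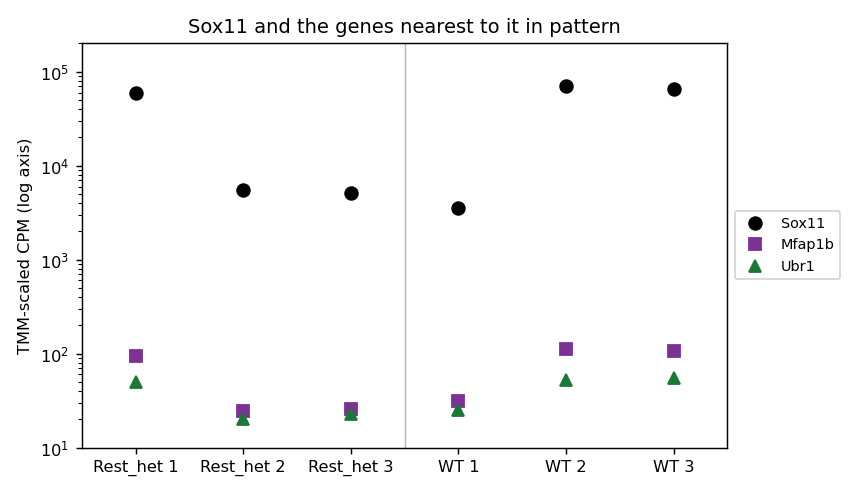
TMM-scaled CPM (log axis) of Sox11 and of the 2 genes nearest to it in pattern, in Rest_het (left of the line) and WT libraries (right). All 3 are high in Rest_het replicate 1 and WT replicates 2 and 3, with Sox11 between 59631 and 70416 CPM there and between 3555 and 5552 CPM in the others.

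Sox4 lies on chromosome 13 from 28948919 to 28953713. Its exon of 4795 bases shares 2616 bases, or 54.6%, with an exon of the long noncoding RNA gene Gm26735 on the opposite strand. Where both genes cover a pair, the unstranded column counts it for neither. That column held 2455, 2492 and 2074 pairs in Rest_het and 2691, 2176 and 2112 pairs in WT. Each strand column counts such a pair for the gene on that strand, and together they held 32997, 32174 and 31875 pairs on Sox4 in Rest_het and 40581, 34418 and 35057 pairs in WT.

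The unstranded count thus left out 92.3 to 93.5% of Sox4 pairs in Rest_het and 93.4 to 93.98% in WT. The pairs left out of Sox4 and those left out of Gm26735 differed in number by at most 2 in any library. The shared bases make up 98.8% of the exons of Gm26735, and its unstranded count was 0 or 1, so these data cannot tell which of the pair the shared reads come from.

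By the unstranded count Sox4 measured 133, 138 and 110.02 CPM in Rest_het and 128, 115 and 109 CPM in WT, overlapping, with a log2 fold change of 0.11 and SE 0.11 (edgeR adjusted p = 0.70). By the strand columns it measured 1781, 1780.4 and 1691 CPM in Rest_het and 1937, 1813 and 1803 CPM in WT. There all Rest_het libraries lay below all WT libraries, as was so for 8.69% of the 16442 genes in that fit, with 19.1% not overlapping in either direction. The log2 fold change turned to -0.082 with SE 0.076 (edgeR adjusted p = 0.69, with 0.128% of genes called in that fit). Neither count passed the test, and the strand columns allow a fold between 0.852 and 1.05. For the members other than Sox4 and Nfix, at most 0.025% of pairs were missing from the unstranded column.

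**Figure D5:**
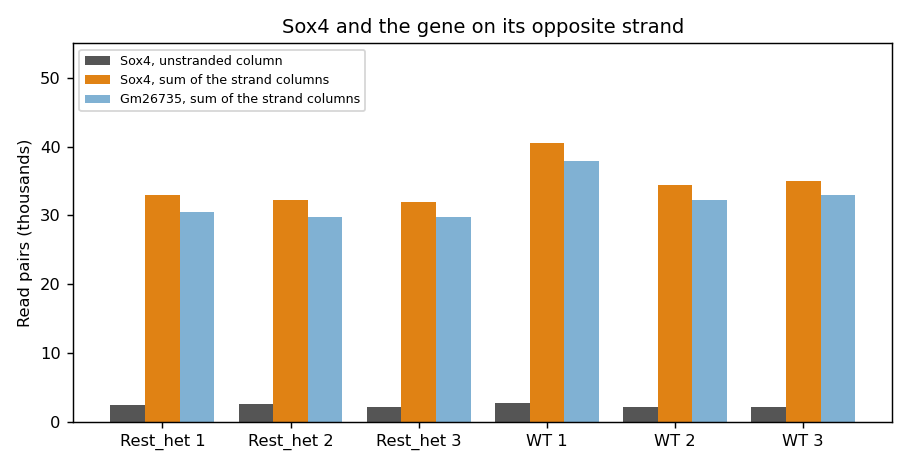
Read pairs on Sox4 in the unstranded column, on Sox4 in the summed strand columns, and on Gm26735 in the summed strand columns, for Rest_het (left 3) and WT libraries (right 3). The unstranded column holds 2074 to 2691 pairs and the summed columns of Sox4 31875 to 40581.

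The third SoxC gene, Sox12, measured 51.6 ± 5.26 CPM in Rest_het and 60.2 ± 10.5 CPM in WT (SD, n = 3 each; edgeR adjusted p = 0.54). The list of NFI and Sox relatives held 11 genes, of which 10 were tested and 0 rose or fell, against 0.123% of all tested genes called. Of the 10, 7 lay above 0, with a median of 0.084, while 49.1% of all tested genes lay below 0. Sox1, a SoxB1 gene of neural progenitors, differed by 0.42 in log2 units (edgeR adjusted p = 0.46).

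Genes reported as targets or cofactors of these factors, and genes of the neurons that express them, were counted in the same fit. Of 17 targets and cofactors, 15 were tested, and 0 rose and 0 fell, against 0.123% of all tested genes called. Dcx, a microtubule protein of migrating neurons, measured 259, 278 and 263 CPM in Rest_het and 327, 314 and 306 CPM in WT, and its log2 difference was -0.24 (edgeR adjusted p = 0.35). Myt1l, a zinc-finger factor that keeps neurons from other fates, measured 113, 104 and 110.1 CPM in Rest_het and 149, 139 and 129 CPM in WT (log2 fold change -0.35, edgeR adjusted p = 0.32). Its relative Myt1 had 0.23 (edgeR adjusted p = 0.395). The genotypes did not overlap for these 3 genes, which were named for having the smallest p of the list. They did not overlap for 4 of the 15 tested, against 19.3% of all tested genes. Of the 15, 10 had a log2 fold change below 0, against 49.1% of all tested genes, with a median of -0.05.

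Of 17 genes of projection neuron identity, 15 had a log2 fold change below 0, against 49.1% of all tested genes. The list's median was -0.17 against 0.0054 over all tested genes. Of the 17, 0 rose or fell, against 0.123% of all tested genes called. The genotypes did not overlap for 5 of them, against 19.3% of all tested genes. Mef2c, a factor of neuronal maturation, measured 153 ± 20.5 CPM in Rest_het and 195 ± 16.1 CPM in WT, and the upper-layer factor gene Cux1 115 ± 4.68 CPM in Rest_het and 133 ± 8.69 CPM in WT (SD, n = 3 each; edgeR adjusted p = 0.36 and 0.395). Lmo4, a cofactor of LIM and bHLH proteins, went the other way, with 338 ± 57.5 CPM in Rest_het and 240 ± 28.4 CPM in WT (SD, n = 3 each; edgeR adjusted p = 0.34).

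Of 16 genes of young neuron structure, 11 had a log2 fold change below 0, against 49.1% of all tested genes, and their list's median was -0.12. Of the 16, 0 were called, against 0.123% of all tested genes. The genotypes did not overlap for 4 of them, against 19.3% of all tested genes. Map2, a microtubule protein of dendrites, measured 476, 468 and 461 CPM in Rest_het and 829, 669 and 629 CPM in WT, or -0.60 in log2 units (edgeR adjusted p = 0.20). DESeq2 called it, with an adjusted p of 0.00083, as did edgeR without a count filter, with 0.0073. The semaphorin receptor gene Plxna4 had a log2 difference of -0.36 and the microtubule regulator gene Stmn2 one of -0.19 (edgeR adjusted p = 0.33 and 0.42). Over the 6 lists, 76 of 82 genes were tested, and 44 lay below 0, beside 49.1% of all tested genes. An unadjusted p under 0.05 was reached by 14, beside 11.7% of all tested genes.

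The libraries in which the members were lowest or highest can be named. Rest_het replicate 2, lowest for Neurod6, Nfia and Nfib, had the highest sum of interneuron and ventral telencephalon markers, 572 CPM against 278 and 319 CPM in the other Rest_het libraries. WT replicate 2, highest for Neurod6, Bhlhe22, Nfib and Nfix, had the lowest, 228 CPM against 345 and 376 CPM in the other WT libraries. It was also lowest of the WT libraries for markers of the hem, choroid plexus and hippocampus, the thalamus and hypothalamus, the endothelium, the meninges and microglia, and highest of all 6 for those of apical progenitors, at 1627 CPM. Markers of the hem, choroid plexus and hippocampus, 7 of 9 tested, summed to 322, 134 and 470.5 CPM in Rest_het and 178, 94.4 and 112 CPM in WT. Markers of projection neurons summed to 1128, 1135 and 1231 CPM in Rest_het and 1471, 1225 and 1163 CPM in WT. By that sum, replicate 2 was neither the highest nor the lowest library of either genotype. The part of these cell types in the members' levels was not tested. Sox4 by the unstranded count was highest in Rest_het replicate 2, while by the strand columns WT replicate 1 was highest, at 1937 CPM. By the unstranded count the gene nearest to Sox4 in pattern was Lhx6, a factor of cortical interneurons, at a root mean square difference of 0.0390. Lhx6 measured 22.5, 23.4 and 17.9 CPM in Rest_het and 21.0, 20.2 and 18.1 CPM in WT. Lhx6 is 1 of the 12 interneuron and ventral telencephalon markers, whose sum did not follow Sox4. In Rest_het replicate 1 that sum was 278 CPM, the lowest of its genotype, with Sox4 at 133 CPM by the unstranded count.

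For Nfib the nearest genes were Mir99ahg, a microRNA host gene, at 0.0116, and Pou3f2, at 0.0233. Pou3f2, a POU factor of upper-layer neurons, measured 1801.5, 1566 and 1983 CPM in Rest_het and 2087, 2149 and 1966 CPM in WT. The nearest gene to Neurod6 was Mturn, at 0.0554, which has been tied to neural differentiation in frogs, and to Nfia it was Tmem168, at 0.0427. The nearest to Neurod2 was the helicase gene Dhx38, at 0.0154, to Bhlhe22 the kinase gene Stk36, at 0.0368, and to Nfix Wdr24, at 0.125. With 6 libraries and 8270 genes to choose from, such nearness describes these libraries only.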

How the data were processed

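Per the labels' protocols, neocortex RNA was reverse transcribed with oligo dT and a template-switching oligo, amplified for 12 PCR cycles, tagmented and sequenced as pairs of 126 bases, and no strand marking or molecular identifier is named. The deposited counts per gene came from STAR 2.5.2a on GRCm38.p4, and the deposited normalized signal per gene from DESeq2, per the submitters' processing notes. Groups and replicate numbers came from the sample titles. The labels name separate mice but no litter or batch.

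The unstranded count was the main measure. Pairs outside it were unmapped (1.21 to 1.45%), multimapping (6.29 to 7.48%), outside genes (21.4 to 26.9%) or ambiguous (2.54 to 2.85%). Symbols matched 48349 of 48709 gene IDs, and positions and exon lengths came from GENCODE M21 on GRCm38. The quasi-likelihood test of edgeR 4.0.16 under R 4.3.3 was run on them after TMM scaling and filterByExpr (count minimum 10, total 15), with genotype as the single term, and p-values were Benjamini-Hochberg adjusted over 15385 genes. A gene was called at an adjusted p under 0.05. SE is the log2 fold change over the root of F. CPM of the strand columns used the same library sizes as the unstranded CPM. The code was tested on simulated counts.

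The members and lists were chosen with earlier results of these data known. Named genes were the 8 members, 7 fixed relatives and partners, called list genes, the 3 smallest p in each list, and the genes nearest in pattern. Mfap1a, Farsa and the neighbours of Sox11 and Nfix were added after values were seen. Alternatives used DESeq2 1.42.0, limma 3.58.1, other scalings and filters, the strand columns, a replicate block and each library left out. Leaving Sox11 out before scaling was added after the data were seen.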

Additional observations from a re-analysis of the deposited data

Results flagged for a closer look

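Outside the gene counts, the CRE-ERT2 sequence held 10, 16 and 17 reads in the Rest_het libraries, 43 in all, and 0 in each WT library. The LacZ sequence held 0 reads in each Rest_het library and 27, 51 and 43 reads in the WT libraries. Both were looked at because they carry signal in 1 genotype only, and neither is among the genes tested.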

How the results depend on the processing

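No member was called under any of the 16 alternative fits, or at an adjusted p under 0.10. The number of genes called, 19, became 107 with no count filter, 131 with DESeq2, 6 with the replicate number as a block, and 12 to 35 when single libraries were left out. The cause was not tested. The list genes called, 0, became 1 with no filter and 1 with DESeq2, Map2 in both. Of the members, Neurod2, near 0, turned to 0.00054 with a filter of 1 CPM in 3 libraries and 0.00011 with limma-voom, and ran from -0.032 to 0.023 without single libraries. Sox4 turned to -0.082 in the strand columns, which count its shared pairs, and there 4 of the 8 members kept their place in the order of levels. Without single libraries Neurod1 ran from -0.028 to 0.13 and Neurod4 from -0.38 to 0.088. The log2 fold change of Sox11 ran from -3.12 to -0.49. Same-numbered libraries did not deviate together, with correlations of 0.0115, 0.0366 and -0.144 for numbers 1, 2 and 3, so the replicate block is a check and no pairing. Longest transcripts in place of merged exons put Nfib at 764 and Nfia at 559.8 CPM per kb. Bhlhe22 had the fewest reads of the members. With no molecular identifier named, PCR copies could not be told apart. The intervals rest on the spread between libraries, so PCR copying enters them only through that spread.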
